A study of Homo sapiens with 19 samples.

Results

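The genes examined here encode the AP-1 transcription factors: FOS, FOSB, FOSL1 and FOSL2 of the FOS family, JUN, JUNB and JUND of the JUN family, and their relatives ATF3 and BATF. They are 9 of the 20162 protein-coding genes of the annotation (GENCODE lifted to hg19). They were chosen by name and not by a measured value, though with earlier results of these data known. In each of 8 deposited lists of ERRα ChIP-seq peaks, every peak whose centre lay within 20 kb of an annotated transcript start of a member was taken. ERRα is an orphan nuclear receptor that controls genes of energy metabolism, and a ChIP-seq peak is a stretch of DNA enriched after immunoprecipitation of the protein that is bound to it.

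The lists came from ERBB2-positive human breast cancer lines. SKBr3 and BT-474 cells were starved of serum for 24 h and then received PBS vehicle (veh), 100 μM EGF or 100 μM heregulin (HRG), the growth factors for 90 min. EGF activates HER2 through EGFR, and HRG through HER3. Untreated parental pSKBr3 cells were compared with LRSKBr3 cells, a lapatinib-resistant line made by long exposure to that dual EGFR/HER2 inhibitor and kept in 2 μM of it. Line and drug differ together in this comparison and cannot be told apart. The 19 libraries were 13 ChIP and 6 input libraries. Each SKBr3, pSKBr3 and LRSKBr3 list pooled 2 ChIP libraries, whereas each BT-474 list rested on 1 ChIP library and all BT-474 lists shared the input of vehicle-treated cells. With 1 list per condition and no spread between replicates, no treatment effect could be tested, and every difference below is a description of these lists.

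AP-1 factors are pairs of basic leucine-zipper proteins. A FOS-family protein needs a partner such as a JUN protein, whereas JUN proteins also pair with each other, and the pairs bind the word TGACTCA, which reads TGAGTCA on the opposite strand. FOS, JUN and their relatives are classical immediate early genes, whose transcription rises within minutes to hours of growth factor signalling through the ERK and JNK kinases. In breast cancer cells AP-1 is known for its part in growth and invasion.

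On vehicle, 6 of the 9 AP-1 genes had an ERRα peak within range in SKBr3 cells, where 54.1% of all protein-coding genes had one. On EGF there were 7 members (background 56.3%), and on HRG all 9 (background 66.4%). In BT-474 cells 6 members were bound on vehicle (background 53.0%), 6 on EGF (background 42.3%) and 7 on HRG (background 55.3%). All 9 members had a peak in pSKBr3 cells (background 57.1%) and in LRSKBr3 cells (background 69.9%). The genes that came and went were FOSB, JUN and JUND, whereas FOS, FOSL1, FOSL2, JUNB, ATF3 and BATF had a peak in each of the 8 lists, as 26.8% of all genes did. Counting starts within 10 kb, 3 genes (FOSL2, ATF3 and BATF) had a peak in every list. The share of all genes was not computed at 10 kb, so this count has no background.

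The number of peaks varied more than the number of bound genes. SKBr3 cells had 17 peaks in range of the members on vehicle, 23 on EGF and 38 on HRG. BT-474 cells had 19 on vehicle, 10 on EGF and 19 on HRG. There were 20 in pSKBr3 cells and 37 in LRSKBr3 cells, so that the longest member lists were those of HRG-treated SKBr3 cells and of resistant cells. The lists themselves held 22539 to 41271 peaks. The mean number of peaks per member was 1.89, 2.56 and 4.22 in SKBr3 cells on vehicle, EGF and HRG, against 1.13, 1.18 and 1.74 per protein-coding gene. In BT-474 cells it was 2.11, 1.11 and 2.11, against 1.04, 0.740 and 1.16. In pSKBr3 and LRSKBr3 cells it was 2.22 and 4.11, against 1.16 and 1.90. With P at most 1e-10 SKBr3 vehicle had 14 member peaks, EGF 15 and HRG 26, so that the difference between EGF and vehicle was mostly of weak peaks. On average the members had more peaks than all genes in every list, and no peak was in range of more than 1 member. This mean was uneven: over the 8 lists JUNB held 39 and ATF3 38 of the 183 member peaks. JUN had at most 1 peak in any list.

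**Figure D1:**
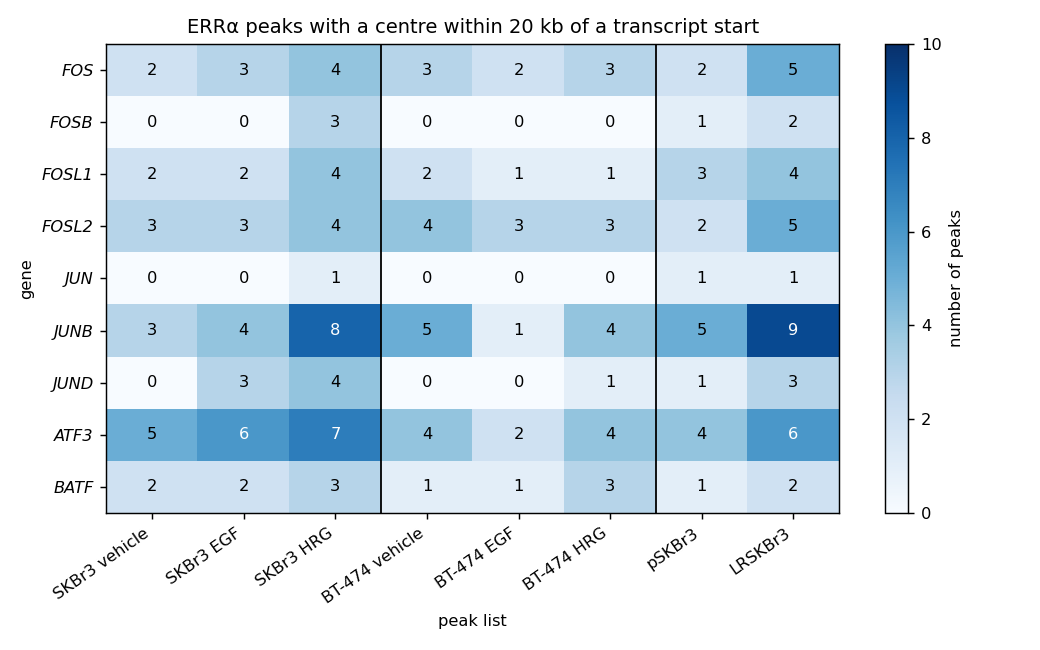
Number of ERRα peaks with a centre within 20 kb of a transcript start, by gene (rows) and peak list (columns, SKBr3, BT-474 and the parental and resistant lines separated by black lines). The colour and the printed number give the same count. JUNB had 8 peaks on SKBr3 HRG and 9 in LRSKBr3 cells, and JUN had 1 peak in 3 lists and none in the other 5.

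FOSB, JUNB and JUND lie on chromosome 19, and the lists differed there as a whole. A peak lay in range of 49.6% of the 1480 protein-coding genes of chromosome 19 on SKBr3 vehicle, 54.1% on EGF and 76.8% on HRG. Among genes of the other chromosomes these shares were 54.5%, 56.4% and 65.5%. In pSKBr3 and LRSKBr3 cells the chromosome 19 shares were 65.4% and 76.2%, against 56.4% and 69.4% elsewhere. The 3 members on chromosome 19 together had 3, 7 and 15 peaks on SKBr3 vehicle, EGF and HRG, and the 6 members elsewhere had 14, 16 and 23. In pSKBr3 and LRSKBr3 cells they had 7 and 14 peaks, and the members elsewhere 13 and 23. The higher numbers on SKBr3 HRG and in LRSKBr3 cells were therefore seen on and off chromosome 19. In BT-474 cells the chromosome 19 shares on vehicle, EGF and HRG were 50.8%, 33.7% and 42.2%, against 53.1%, 43.0% and 56.3% elsewhere. The members there had 5, 1 and 5 peaks, and those elsewhere 14, 9 and 14. The part of the chromosome in the counts of its 3 members was not tested.

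Each peak carries the MACS score of the authors, a log-transformed P value of the peak, which depends on the depth of its library. It is given here as a percentile within the peak's own list, where 100 is the strongest. A list that holds more weak peaks gives a given peak a higher percentile, so percentiles of different lists are set side by side and not read as a change. Depth is unknown, since the lists hold no tag counts. As a check of the ChIP, ESRRA, the gene of ERRα itself, had 3 to 9 peaks in range in each list, and its strongest peak stood at or above percentile 98.3 in each.

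**Figure D2:**
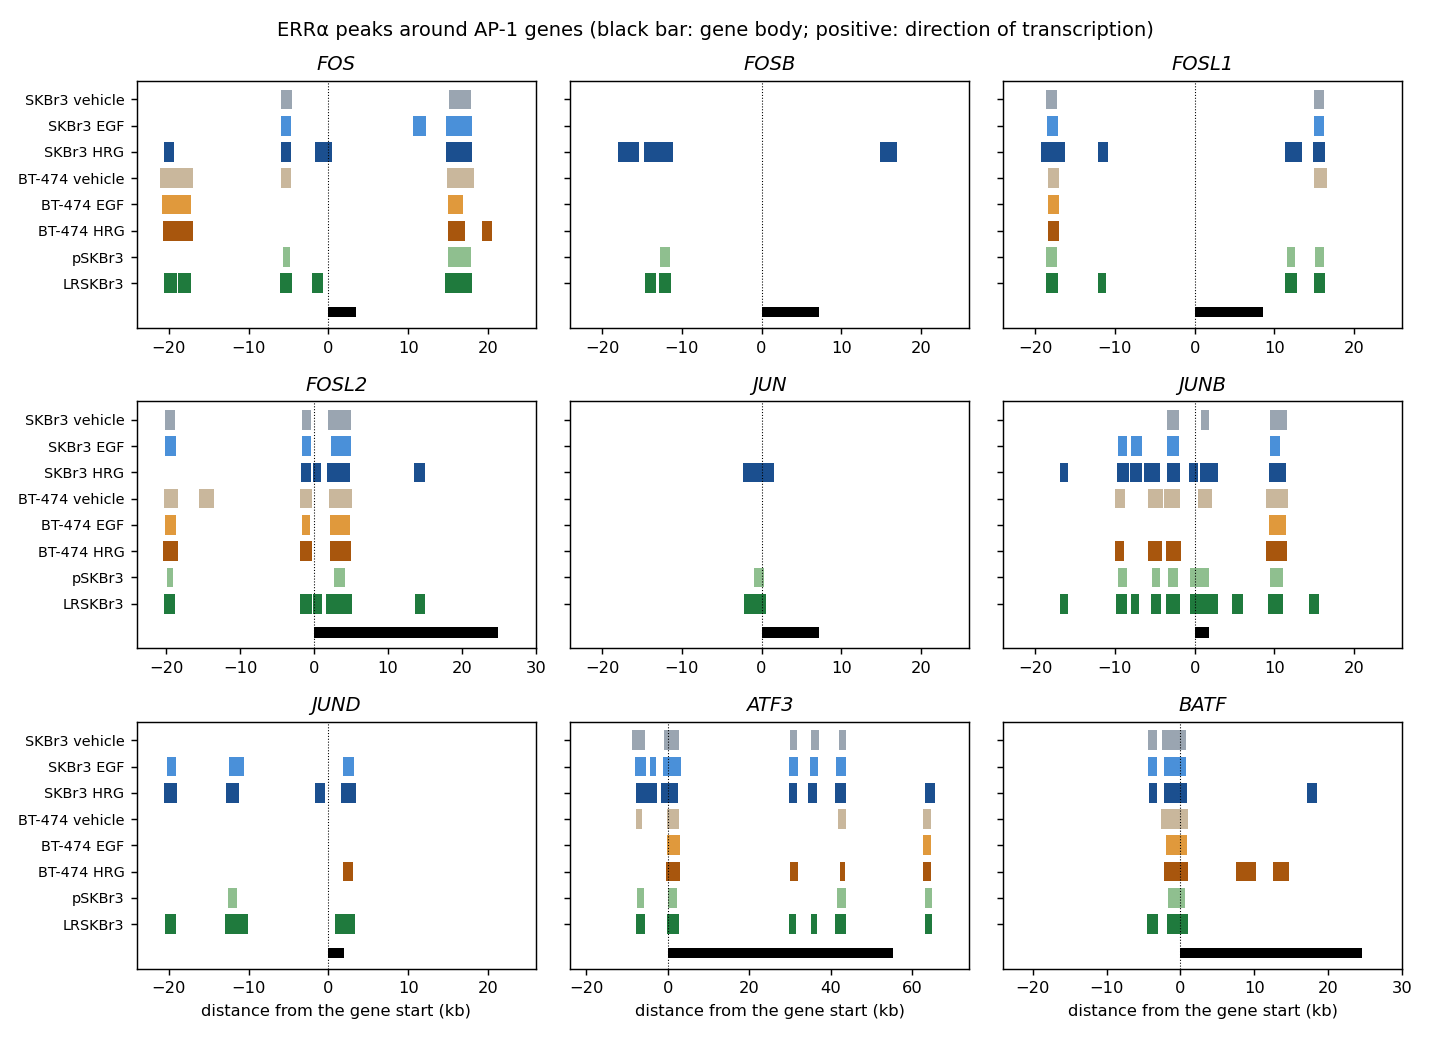
Extent of every ERRα peak in range of an AP-1 gene (coloured bars, 1 row per peak list), plotted by distance from the gene start in kb, with transcription to the right and the gene body as a black bar. The FOS, FOSL2, ATF3 and BATF panels each hold a column of peaks present in all 8 lists, whereas the JUN panel holds peaks in the SKBr3 HRG, pSKBr3 and LRSKBr3 rows alone.

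Among the FOS family, FOS encodes c-Fos, the prototype partner of JUN. It had 2, 3 and 4 peaks on SKBr3 vehicle, EGF and HRG, 3, 2 and 3 on BT-474 vehicle, EGF and HRG, 2 in pSKBr3 and 5 in LRSKBr3 cells. The site that all 8 lists shared lay 15.0 kb from the nearest FOS start, beyond the 3′ end of the gene (hg19 chr14:75760181-75763753). Its percentile was 98.6, 97.1 and 98.6 on SKBr3 vehicle, EGF and HRG, 91.4, 81.2 and 85.0 on BT-474 vehicle, EGF and HRG, 95.0 in pSKBr3 and 97.4 in LRSKBr3 cells. It was thus among the stronger peaks everywhere. A peak just upstream of the FOS start, centred 1.00 kb away, was called in 2 lists alone, SKBr3 HRG (percentile 50) and LRSKBr3 (percentile 23.6). A site 5.31 kb upstream was called in all 3 SKBr3 lists, on BT-474 vehicle, in pSKBr3 and in LRSKBr3 cells. On BT-474 EGF and HRG, where it was not called, the nearest peak centre to a FOS start was 14.6 and 14.7 kb away. The outermost FOS site was strong in BT-474 cells, at percentiles 90.8, 86.3 and 85.1 on vehicle, EGF and HRG, and was not called on SKBr3 vehicle or EGF. It also shows how the 20 kb limit acts: in SKBr3 HRG its centre lay 19952 bp from the start and was counted, and in pSKBr3 cells 20006 bp away and was not.

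FOSB, a FOS paralogue that is also induced as an immediate early gene, had no peak in range on SKBr3 vehicle, SKBr3 EGF or any BT-474 list. In these lists the nearest peak centre lay 21.5 to 28.7 kb from a FOSB start. SKBr3 HRG had 3 FOSB peaks, LRSKBr3 2 and pSKBr3 1. The strongest was on HRG, from 45956485 to 45960218 on chromosome 19 at percentile 87.3, in an intron of ERCC1, a DNA repair gene whose start is nearer to it than that of FOSB. At this place pSKBr3 cells had a peak of percentile 40.6, and LRSKBr3 cells had peaks of percentiles 44.1 and 38.7. The other HRG peaks, at the ERCC1 promoter and 4635 bp from the start of RTN2, stood at percentiles 30 and 28.5 and were called in no other list. Within 10 kb, FOSB had no peak in any list.

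FOSL1, which encodes FRA-1 and is linked to invasive growth, had 2, 2 and 4 peaks on SKBr3 vehicle, EGF and HRG, 2, 1 and 1 on BT-474 vehicle, EGF and HRG, 3 in pSKBr3 and 4 in LRSKBr3 cells. None lay near its own promoter, and the nearest centre in any list was 11.5 kb from a FOSL1 start. The site in all 8 lists was the promoter of the neighbouring C11orf68, 17.8 kb upstream of FOSL1, at percentiles between 71.8 (BT-474 HRG) and 92.9 (LRSKBr3). Both sites downstream of FOSL1 lay at the promoter of FIBP. The one 11.9 kb away was called on SKBr3 HRG, in pSKBr3 and in LRSKBr3 cells, at percentiles 44.7, 23.5 and 63.1. Every FOSL1 peak except those of a weak site 11.6 kb upstream, called on SKBr3 HRG and in LRSKBr3 cells, was therefore centred at the promoter of another gene.

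FOSL2, which encodes FRA-2, had 3, 3 and 4 peaks on SKBr3 vehicle, EGF and HRG, 4, 3 and 3 on BT-474 vehicle, EGF and HRG, 2 in pSKBr3 and 5 in LRSKBr3 cells. Its strongest site was centred 397 bp from an internal FOSL2 start, inside the gene. Its percentile was 99.9, 96.9 and 96.4 on SKBr3 vehicle, EGF and HRG, 96.7, 95.5 and 98.5 on BT-474 vehicle, EGF and HRG, 88.1 in pSKBr3 and 98.7 in LRSKBr3 cells. The FOSL2 gene start itself carried a separate, weaker peak on SKBr3 HRG (percentile 13.0) and in LRSKBr3 cells (percentile 33.5) and in no other list. The same pair of lists shared a peak in the gene, 11.2 kb from a start, at percentiles 47.9 and 47.4. The site 19.5 kb upstream went the other way: it was called in 7 lists and missing on SKBr3 HRG, and it was the sole member peak of SKBr3 vehicle without a partner on HRG.

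Among the JUN family, JUN encodes c-Jun, the most potent activator of the family. It had no peak in range on SKBr3 vehicle, SKBr3 EGF or any BT-474 list, and the nearest centre there lay 25.5 to 30.5 kb from its start. A peak over its promoter was called on SKBr3 HRG from 59248163 to 59252076 on chromosome 1 at percentile 79.1. In pSKBr3 cells the peak ran from 59249405 to 59250709 at percentile 51.6, and in LRSKBr3 cells from 59249178 to 59251958 at percentile 66.1. The gene start, at 59249720, lay inside each of the 3 peaks. JUN was thus bound at its start or not within 20 kb at all.

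The 250 bases upstream of the JUN start (GRCh37 chr1:59249721-59249970, minus strand) lay wholly inside the peak in each of the 3 lists and are shown for that reason, 5′ to 3′. The capitals mark the word TGACATCA, 66 to 59 bases before the start, an AP-1-like word through which JUN and ATF2 are known to act on this promoter. On either strand the word occurs in the same window of 1.79% of the 20162 genes and of 2 members, JUN and ATF3. The search for it was added after the JUN peaks had been seen.
JUN promoter: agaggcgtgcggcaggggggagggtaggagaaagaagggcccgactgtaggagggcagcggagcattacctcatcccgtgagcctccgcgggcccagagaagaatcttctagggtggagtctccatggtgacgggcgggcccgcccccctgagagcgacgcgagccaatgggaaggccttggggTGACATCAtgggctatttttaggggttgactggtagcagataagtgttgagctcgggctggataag
Neither the AP-1 word (TGACTCA) nor the ERRα response element word (ERRE, TCAAGGTCA) occurs on either strand in the 250 bases upstream of any member. These words occur in 3.34% and 0.258% of the windows of all genes. A matching word is a description of the sequence and does not show that a factor was bound there.

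JUNB, which often opposes c-Jun and is itself an early response gene, had the widest range, from 1 to 9 peaks. There were 3, 4 and 8 on SKBr3 vehicle, EGF and HRG, 5, 1 and 4 on BT-474 vehicle, EGF and HRG, 5 in pSKBr3 and 9 in LRSKBr3 cells. The site in all lists was the promoter of PRDX2, an antioxidant peroxiredoxin gene 10.3 kb downstream, at percentiles between 50.4 and 83.4. Its percentile was 56.9, 50.4 and 77.1 on SKBr3 vehicle, EGF and HRG, and it was the sole JUNB peak on BT-474 EGF. The site over JUNB itself was called on SKBr3 vehicle (percentile 5.41), SKBr3 HRG (77.2), BT-474 vehicle (28.6), pSKBr3 (82.5) and LRSKBr3 (88.4). The same place is next to a start of HOOK2, whose introns hold 5 further JUNB sites. Of these the one centred 2.69 kb upstream of JUNB was called in all lists but BT-474 EGF. It stood at 43.1, 55.8 and 84.4 on SKBr3 vehicle, EGF and HRG, at 45.5 and 65.2 on BT-474 vehicle and HRG, and at 75.1 and 89.9 in pSKBr3 and LRSKBr3 cells. The lists compared here differ in length, so that these values do not measure a change in binding. The 3 protein-coding genes over 100 kb away whose peak numbers were most like those of JUNB were CRACDL, FLOT1 and IER3, each with a mean absolute difference of 0.625 peaks over the 8 lists. FLOT1 and IER3 are neighbours and share peaks.

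JUND, the JUN protein that is present in most resting cells, had no peak in range on SKBr3 vehicle, BT-474 vehicle or BT-474 EGF, where the nearest centre was 38.2 to 38.3 kb away. It had 3 peaks on SKBr3 EGF, 4 on SKBr3 HRG, 1 on BT-474 HRG, 1 in pSKBr3 and 3 in LRSKBr3 cells. JUND was the sole member with no peak on vehicle that had one on EGF in SKBr3 cells (background: 7.76% of genes) and the sole such member on HRG in BT-474 cells (background: 8.21%). The EGF peaks were weak, at percentiles 27.1, 22.2 and 31.8, and so was that of BT-474 HRG, at 25.2. None of these 4 peaks had a P of at most 1e-10. On SKBr3 HRG the same sites stood at 56.7 just past the 3′ end of the gene, 82.2 at 11.7 kb upstream and 85.0 at 19.8 kb upstream. In LRSKBr3 cells these sites stood at 83.6, 91.2 and 74.4. In pSKBr3 cells the site 11.7 kb upstream alone was called, at 66.9. A peak 1.06 kb upstream of the JUND start was called on SKBr3 HRG alone, at 33.8.

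The JUND sites 11.7 and 19.8 kb upstream hold an AP-1 word close to a peak centre, which the site 1.06 kb upstream does not, and are printed with 35 bases to each side, the word in capitals (GRCh37). The site 11.7 kb upstream is shown on the plus strand from chr19:18404389-18404465, where the word lay within 100 bp of the centre on SKBr3 HRG and in pSKBr3 cells. The site 19.8 kb upstream is shown on the minus strand from chr19:18411999-18412075, where it did so on SKBr3 EGF.
JUND 11.7 kb upstream: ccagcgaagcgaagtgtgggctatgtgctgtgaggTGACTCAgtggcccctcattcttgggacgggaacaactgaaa
JUND 19.8 kb upstream: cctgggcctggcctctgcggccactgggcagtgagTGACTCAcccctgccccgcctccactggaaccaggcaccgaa
The 250 bases before the JUND start (GRCh37 chr19:18392433-18392682, minus strand) hold TGACGTCA, the cAMP response element word to which ATF and JUN pairs bind, 200 to 193 bases before the start (capitals). It occurs on either strand in 1.88% of such windows of all genes, and JUND was the sole member with it. No list had a peak over this window, unlike that of JUN.
JUND promoter: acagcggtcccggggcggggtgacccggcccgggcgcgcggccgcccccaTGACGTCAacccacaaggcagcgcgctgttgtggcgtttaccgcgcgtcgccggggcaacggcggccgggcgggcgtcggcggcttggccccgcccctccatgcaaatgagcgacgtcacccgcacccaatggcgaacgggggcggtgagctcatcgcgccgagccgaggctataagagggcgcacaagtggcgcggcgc

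ATF3, a stress-induced factor that pairs with JUN proteins, is a gene with several starts spread over its length. It had 5, 6 and 7 peaks on SKBr3 vehicle, EGF and HRG, 4, 2 and 4 on BT-474 vehicle, EGF and HRG, 4 in pSKBr3 and 6 in LRSKBr3 cells. The site in all 8 lists lay in the gene, 1.20 kb from a start, at percentiles between 89.5 (SKBr3 vehicle) and 98.5 (BT-474 HRG). The site at an internal promoter of ATF3, centred 711 bp from a start, was at percentile 8.38 on SKBr3 vehicle, 73.4 on EGF and 86.9 on HRG. In BT-474 cells it was at 35.2 on vehicle and 23.3 on HRG and was not called on EGF. It was at 30.9 in pSKBr3 and 81.7 in LRSKBr3 cells. Other ATF3 sites were ordered differently. The sites in the gene 12.5 and 7.38 kb from a start were at 55.2 and 62.7 on SKBr3 vehicle, 62.1 and 82.7 on EGF and 21.9 and 31.3 on HRG. A site 6.79 kb upstream was strong in every SKBr3-derived list (83.0 to 94.9), weaker on BT-474 vehicle (37.8) and not called on BT-474 EGF or HRG. The weak site 3.79 kb upstream was called on SKBr3 EGF (32.1) and HRG (2.37) and in no other list.

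BATF, best known from lymphocytes, pairs with JUN proteins and lacks a transactivation domain of its own. It had 2, 2 and 3 peaks on SKBr3 vehicle, EGF and HRG, 1, 1 and 3 on BT-474 vehicle, EGF and HRG, 1 in pSKBr3 and 2 in LRSKBr3 cells. Its promoter, centred 658 bp upstream of the start, stood at or above percentile 92.6 in every list, the highest such minimum among the 6 sites called in all 8 lists. The percentile was 98.6, 97.0 and 94.6 on SKBr3 vehicle, EGF and HRG, 98.3, 98.9 and 98.5 on BT-474 vehicle, EGF and HRG, 92.6 in pSKBr3 and 100 in LRSKBr3 cells. The site 3.77 kb upstream stood at 66.1, 46.3 and 5.16 on SKBr3 vehicle, EGF and HRG and at 77.5 in LRSKBr3 cells, and was called in no other list. The ERRE word was within 100 bp of the centre of the promoter peak in 4 of the 8 lists. The peaks inside the gene on BT-474 HRG (percentiles 31 and 42.6) and on SKBr3 HRG (46.8) were at different places.

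**Figure D3:**
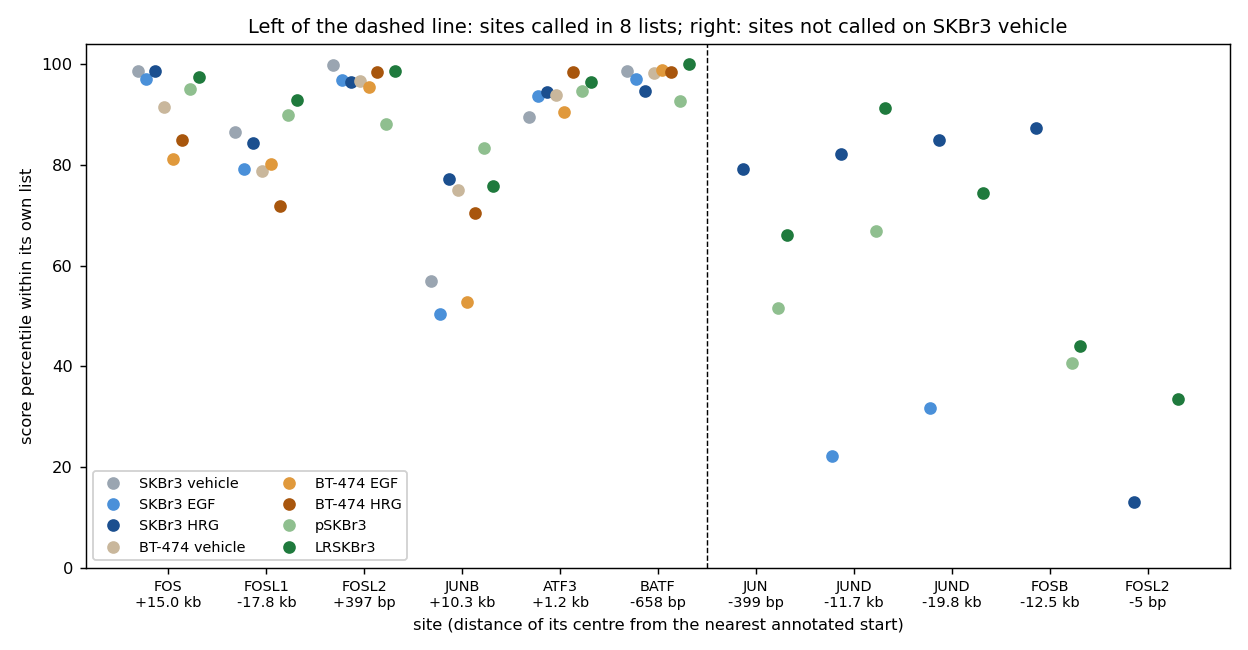
Score percentile of chosen sites within their own lists (y axis, 100 the strongest), with 1 point per list that called the site and the signed distance of the site centre from the nearest annotated start below. The 6 sites to the left of the dashed line were called in all 8 lists and ranged from 50.4 to 100, and the sites to the right were not called on SKBr3 vehicle.

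The ERRE word TCAAGGTCA lay within 100 bp of the centre of 7 of the 183 member peaks (3.83%), against 6.74% of all 264623 peaks of the lists. The same site is counted once for each list that called it, and the 7 peaks were at 2 sites. The word occurred, on either strand, at 3 places in the member peaks, printed here with 35 bases to each side and the word in capitals (GRCh37). That of BATF is on the minus strand from chr14:75988117-75988195. That of FOSL2, 19.5 kb upstream, is on the plus strand from chr2:28595899-28595977 and was near the centre in all 3 BT-474 lists. That of FOSB, in the SKBr3 HRG peak near RTN2, is on the plus strand from chr19:45986869-45986947 and was away from the centre.
BATF promoter site: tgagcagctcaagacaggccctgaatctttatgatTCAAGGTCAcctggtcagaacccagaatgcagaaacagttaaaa
FOSL2 upstream site: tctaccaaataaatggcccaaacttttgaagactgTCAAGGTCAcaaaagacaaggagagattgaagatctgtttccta
FOSB downstream site: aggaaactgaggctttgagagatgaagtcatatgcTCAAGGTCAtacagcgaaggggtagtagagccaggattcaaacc
The FOSL2 place is the one that SKBr3 HRG did not call, the BATF place was called in all lists, and the FOSB place on SKBr3 HRG alone.

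The AP-1 word lay within 100 bp of the centre of 8 of the 183 member peaks (4.37%), which were at 5 sites, against 7.6% of all peaks. No member peak of SKBr3 vehicle (17 peaks) or of BT-474 vehicle, EGF or HRG (19, 10 and 19 peaks) had it there, where the shares of all peaks were 6.55%, 5.94%, 6.36% and 7.41%. With so few member peaks, such shares correspond to few peaks or none. There were 2 such peaks each on SKBr3 EGF (23 peaks), SKBr3 HRG (38), in pSKBr3 (20) and in LRSKBr3 cells (37). The shares of all peaks in the latter 4 lists were 12.7%, 9.76%, 5.70% and 5.71%. Beside the JUND places they belonged to FOSB, FOSL2 and ATF3. The FOSB place lay in the ERCC1 intron on the minus strand (chr19:45959117-45959193; near the centre in pSKBr3 and LRSKBr3 cells). The ATF3 place was the weak upstream site on the plus strand (chr1:212734893-212734969; SKBr3 EGF). That of FOSL2 was at the gene start on the plus strand (chr2:28615719-28615745; SKBr3 HRG and LRSKBr3) and is printed with 10 bases to each side, since it lies in an untranslated region.
FOSB upstream site: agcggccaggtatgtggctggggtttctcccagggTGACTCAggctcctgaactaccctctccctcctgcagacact
ATF3 upstream site: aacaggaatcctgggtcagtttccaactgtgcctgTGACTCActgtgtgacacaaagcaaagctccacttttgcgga
FOSL2 start site: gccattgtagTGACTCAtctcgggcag
Over the whole extent of the peaks the AP-1 word was present in 40.4% of member peaks and 35.2% of all peaks, and the ERRE word in 8.74% and 15.3%. A wider peak can hold more words, and member peaks had the larger median width in every list except BT-474 vehicle. On SKBr3 HRG these medians were 2032 and 1401 bp. The part of width in these shares was not tested. The JUNB site 9.10 kb upstream held 3 AP-1 words, none of them within 100 bp of a centre.

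The growth factor comparison asks which peaks near AP-1 genes were called on a growth factor and not on vehicle. A gained peak is one with no overlapping peak (at least 1 bp) in the control list, and a lost peak is a control peak with none in the treated list. On SKBr3 EGF 7 of 23 member peaks (30.4%) were gained, where 33.1% of all EGF peaks were. They belonged to JUND (3 peaks), JUNB (2), FOS (1) and ATF3 (1), 4 members in all where 24.7% of genes had a gained peak, and were weak, with percentiles between 8.45 and 36.7. EGF lost 1 of the 17 vehicle member peaks (5.88%, background 31.8%), the weak vehicle peak over JUNB (19.7% of genes had a lost peak). On SKBr3 HRG 22 of 38 member peaks (57.9%) were gained, where 51.2% of all HRG peaks were. Each of the 9 members had at least 1 of them, where 47.5% of all genes did, with 5 at JUNB, 4 at JUND and 3 at FOSB. HRG lost 1 of 17 vehicle member peaks (5.88%, background 43.0%), that of FOSL2 described above (18.5% of genes had a lost peak). FOSB, JUN and JUND passed from no peak to at least 1 on HRG, as 16.5% of all genes did. The gained shares on EGF and HRG lay near those of all peaks, and the lost shares below them. The low number lost on HRG changed with the length of the lists: 5 of 15 were lost when every list was reduced to its strongest 22539 peaks. The share of all peaks lost was not computed there, so the order against all peaks is unknown at that length. Of the gained EGF peaks, 1 had a P of at most 1e-10. These comparisons share the vehicle list.

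The gained HRG member peaks had a median percentile of 47.4, against 33.4 for all gained HRG peaks, and the member peaks shared with vehicle had 80.8. The base composition of the member peaks also differed from that of all peaks. The median GC content of the 200 bases around the centre was 61.0% in gained HRG member peaks and 51.2% in all gained HRG peaks. On EGF these medians were 55.7% and 44.8%. The vehicle member peak lost on EGF had 64.2%, against 41.8% in all peaks lost there. That lost on HRG had 48.8%, against 40.8%. The part of GC content in the members' counts was not tested.

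In BT-474 cells fewer member peaks were gained than in SKBr3 cells under each growth factor, a difference between lines that could not be tested. On BT-474 EGF 0 of 10 member peaks were gained (background 23.4%, and 9.62% of genes had a gained peak), and 9 of 19 vehicle member peaks (47.4%, background 37.3%) were lost. The lost peaks belonged to JUNB (4), ATF3 (2), FOS, FOSL1 and FOSL2 (1 each), 5 members where 30.9% of genes had a lost peak, and their median GC content was 63.2%, against 41.8% in all peaks lost there. The BT-474 EGF list was also shorter as a whole, with 26832 peaks against 32259 on vehicle. On BT-474 HRG 5 of 19 member peaks (26.3%, background 36.3%) were gained, at BATF (2), FOS, JUND and ATF3 (1 each), 4 members where 25.1% of genes had a gained peak. As many of the 19 vehicle member peaks (26.3%, background 18.9%) were lost, 1 each at FOS, FOSL1, FOSL2, JUNB and ATF3 (19.0% of genes had a lost peak). The number lost on HRG had no stable order between the lines: it was 1 in SKBr3 and 5 in BT-474 cells as deposited, 5 and 4 with lists of equal size, and 4 and 3 with P at most 1e-10 in both lists. The shares of all peaks lost under these alternatives were not computed. The BT-474 HRG list was the longest of all, and FOSB and JUN had no peak in range in it. Both BT-474 comparisons share the vehicle list and its input.

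**Figure D4:**
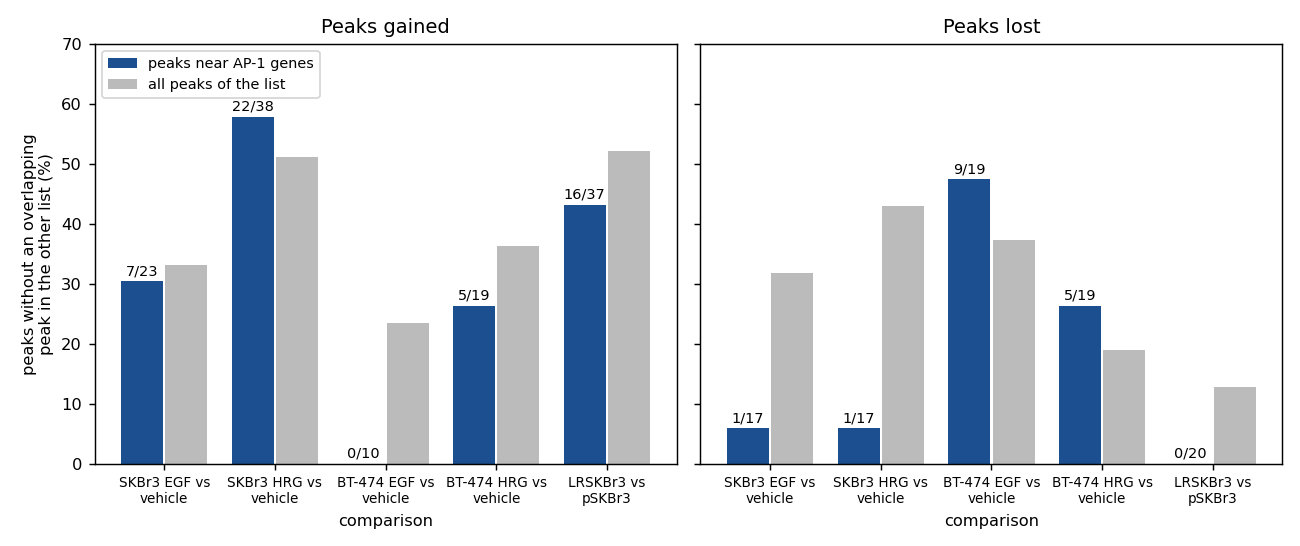
Share of peaks (%, y axis from 0) without an overlapping peak in the other list, for peaks near AP-1 genes (blue, with the count printed) and for all peaks of the list (grey), by comparison. Gained shares refer to the treated or resistant list and lost shares to the control list. The SKBr3 and LRSKBr3 lists lost 1, 1 and 0 member peaks, and the BT-474 lists lost 9 and 5.

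In the comparison of resistant with parental cells, 16 of 37 LRSKBr3 member peaks (43.2%) were gained, where 52.1% of all LRSKBr3 peaks were. They lay near 8 members, JUN being the exception, where 47.3% of all genes had a gained peak in range, with 4 at JUNB and 3 at FOSL2. The gained FOSB peak and 1 gained FOS peak overlapped no pSKBr3 peak. Once peaks were chained across lists, however, they lay in sites that pSKBr3 cells also called. None of the 20 pSKBr3 member peaks was lost (background 12.7%, and 7.84% of genes had a lost peak), and no member passed from no peak to some, since all 9 had a pSKBr3 peak (background 14.7%). The gained LRSKBr3 member peaks had a median percentile of 33.9, near the 30.3 of all gained LRSKBr3 peaks, and a median GC content of 56.4%, against 47.3%. The LRSKBr3 list held 39777 peaks and the pSKBr3 list 22539, and with lists of equal size 6 member peaks were gained and 2 lost. The shares of all peaks gained and lost were not computed at equal size.

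Of the 16 gained LRSKBr3 member peaks 13 overlapped a peak of SKBr3 HRG (81.2%), where 42.6% of all 20724 gained LRSKBr3 peaks did. Overlap with SKBr3 EGF was seen for 7 (43.8%, all gained peaks 37%) and with SKBr3 vehicle for 4 (25.0%, all gained peaks 34.7%). The gained peaks that overlapped SKBr3 EGF or HRG but not vehicle were 9 (56.2%, all gained peaks 28.4%). Of all 37 LRSKBr3 member peaks 33 overlapped SKBr3 HRG (89.2%, all LRSKBr3 peaks 63.4%). Member peaks lie within 20 kb of a start, whereas all LRSKBr3 peaks lie anywhere, so the sets compared are unlike. Of the 16 gained member peaks JUNB held 4, JUND 2 and FOSB 1, all on chromosome 19. The part of location in these shares was not tested. The peak just upstream of FOS, the start peak of FOSL2 and the weak site upstream of FOSL1 were examples called on SKBr3 HRG and in LRSKBr3 cells alone. The lists come from separate cultures, and the number of members is small. The pSKBr3 cells are described as untreated, and no starvation is stated for them.

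The 250 bases upstream of the gene start lay wholly in a peak for 2, 2 and 5 members on SKBr3 vehicle, EGF and HRG, where this held for 14.3%, 12.9% and 24.2% of all genes. On BT-474 vehicle, EGF and HRG it held for 1, 1 and 2 members, against 11.7%, 5.16% and 8.17% of genes, and in pSKBr3 and LRSKBr3 cells for 3 and 3, against 19.6% and 28.7%. BATF was covered in all 8 lists, ATF3 in 4, JUN and JUNB in the same 3 lists (SKBr3 HRG, pSKBr3 and LRSKBr3) and FOS on SKBr3 HRG alone. FOSB, FOSL1, FOSL2 and JUND were covered in none. This count was added after the peaks had been seen.

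Merged across lists, the 183 member peaks formed 45 sites. Of these 6 were called in all 8 lists, 1 each at FOS, FOSL1, FOSL2, JUNB, ATF3 and BATF, and 11 in 1 list. Over the 90452 sites formed in the same way from all peaks of the 8 lists, wherever they lay, 7.10% were called in all 8 lists and 41.6% in 1 list, against 13.3% and 24.4% of the 45 member sites. Neither FOSB, JUN nor JUND had a site in more than 4 lists.

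Other genes of the AP-1 pathway were taken from a list of 50 by function. A peak was in range of 34 of the 50 on SKBr3 vehicle, 34 on EGF and 42 on HRG, where it was in range of 54.1%, 56.3% and 66.4% of all genes. On BT-474 vehicle, EGF and HRG it was in range of 40, 31 and 41 (all genes 53.0%, 42.3% and 55.3%), and of 33 in pSKBr3 and 38 in LRSKBr3 cells (all genes 57.1% and 69.9%). Against SKBr3 vehicle, EGF brought a peak to 5 genes that had none (background 7.76%) and took it from 5 (background 5.63%), and HRG brought it to 9 (background 16.5%) and took it from 1 (background 4.31%). In BT-474 cells EGF brought it to 0 (background 3.04%) and took it from 9 (background 13.7%), and HRG brought it to 1 and took it from 0 (backgrounds 8.21% and 5.88%). LRSKBr3 cells had a peak at 7 genes without one in pSKBr3 cells (background 14.7%), and pSKBr3 cells at 2 without one in LRSKBr3 cells (background 1.84%).

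Of the 14 further family members and dimer partners, 10, 10 and 12 were bound on SKBr3 vehicle, EGF and HRG, to be read, like the counts of the other groups, against the shares of all genes just given (54.1%, 56.3% and 66.4%). Most genes below were named by rules that use these same peaks, among them the highest SKBr3 HRG percentiles of each group. The values that picked a gene are therefore not a result about it. ATF2, a partner of c-Jun, had a peak in every list, at percentile 98.6 on each of the SKBr3 treatments. JDP2, a repressor that pairs with JUN proteins, and the MAF and BACH family genes MAFK and BACH1 were also bound in every list. CREB5, of the same group, had 19 peaks on SKBr3 vehicle, 8 on EGF and 3 on HRG. It falls outside the naming rule and was named after its values were seen. Of the 16 kinases and factors that act on AP-1, 10, 9 and 13 were bound on SKBr3 vehicle, EGF and HRG. MAPK8, the gene of JNK1, had 5, 5 and 4 peaks there, and MAP2K1, MAP2K2 and RPS6KA1 of the ERK cascade were bound in every list. SRF, the factor that switches on FOS through the serum response element, had 1 peak on SKBr3 HRG (percentile 57.3), 1 in LRSKBr3 cells (63.1) and none in the other 6 lists. FBXW7, which targets c-Jun for degradation, had none on SKBr3 vehicle or in pSKBr3 cells, 2 on EGF (strongest 52.9), 2 on HRG (28.7) and 3 in LRSKBr3 cells (49.8). In BT-474 cells it was bound on vehicle, EGF and HRG alike, with the strongest peak at 89.7, 73.9 and 85.4. Among the 20 genes classed as AP-1 targets, 14, 15 and 17 were bound on SKBr3 vehicle, EGF and HRG. MMP9, a matrix metalloproteinase, PLAU, the urokinase gene, and TGFB1 were named because they had no peak on SKBr3 vehicle and at least 1 on EGF and on HRG. The strongest of these peaks was that of MMP9 on EGF (percentile 95.2). On BT-474 vehicle MMP9 and PLAU did have peaks, the strongest at 94.4 and 36.6. In the untreated pSKBr3 cells MMP9 had 1 peak (percentile 75.5), PLAU 2 (strongest 74.6) and TGFB1 1 (29.6). In the other direction, MMP3, PLAUR and IL6, which the naming rule does not cover and which were named after their values were seen, had 2, 1 and 2 peaks on SKBr3 vehicle, none on EGF and 1, 7 and 1 on HRG. VEGFA, KRT18, S100A2 and HMOX1 had a peak in all 3 SKBr3 lists. VEGFA had 2, 4 and 6 there, with the strongest at 94.1, 91.4 and 98.6.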

How the data were processed

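Peaks of ERRα ChIP-seq were taken from 8 deposited lists, 1 per condition. Reads had been mapped by the authors to hg19, which is GRCh37, using BWA 0.5.9 (SAMtools 0.1.18 is also in the submitters' notes), and MACS had called peaks over input where P was at most 1e-05. The deposited score is the authors' MACS value on a log10 scale of P, whose lowest value in each list was 50, and many strong peaks share 3100. Columns of single libraries left unused numbered 0.

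A peak belongs to a gene when its centre lies within 20 kb of any transcript start of the gene (GENCODE 44 lifted to GRCh37, protein-coding genes of chromosomes 1 to 22, X and Y, genes counted by record). Peaks of different lists were shared at an overlap of at least 1 bp and chained into sites. A promoter lies within 1 kb of a start. Words were sought on both strands within 100 bp of the centre. The members, the pathway list and the rules for naming its genes (a peak on both growth factors and none on SKBr3 vehicle, or a peak in LRSKBr3 and not pSKBr3 cells as well as on a growth factor and not vehicle, and the 4 highest SKBr3 HRG percentiles per group) were chosen with earlier results of these data known. The genes most like JUNB were those with the smallest mean absolute difference in peak number. The alternatives were P at most 1e-10, 10 kb, gene record starts, 50% overlap or centres within 500 bp, lists of equal size and other words or windows. Overlap, gene assignment and word search were tested on simulated data. Tools were samtools 1.23.1 and Python 3.11.15 with the modules matplotlib 3.10.9, pandas 2.3.3, numpy 2.4.6 and pysam 0.24.0.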

Additional observations from a re-analysis of the deposited data

Results flagged for a closer look

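The number of peaks near AP-1 genes moved in opposite directions in SKBr3 and BT-474 cells under the same growth factor in several cases. These differences rest on 1 list per condition and were not tested. On EGF the members together had 6 more peaks than on vehicle in SKBr3 cells (17 to 23), and in BT-474 cells the number fell by 9 (19 to 10). The mean over all protein-coding genes moved the same ways, from 1.13 to 1.18 peaks in SKBr3 and from 1.04 to 0.740 in BT-474 cells. FOS had 1 more on EGF in SKBr3 cells (2 to 3) and 1 fewer in BT-474 cells (3 to 2). JUNB had 1 more in SKBr3 cells (3 to 4) and 4 fewer in BT-474 cells (5 to 1). ATF3 had 1 more in SKBr3 cells (5 to 6) and 2 fewer in BT-474 cells (4 to 2). On HRG, FOSL1 had 2 more peaks in SKBr3 cells (2 to 4) and 1 fewer in BT-474 cells (2 to 1). FOSL2 had 1 more in SKBr3 cells (3 to 4) and 1 fewer in BT-474 cells (4 to 3). JUNB had 5 more in SKBr3 cells (3 to 8) and 1 fewer in BT-474 cells (5 to 4). The BT-474 lists rest on 1 ChIP library each and the SKBr3 lists on 2, and the BT-474 EGF list held fewer peaks than that of vehicle (26832 against 32259). A check added after these values were seen repeated the 7 comparisons at the stricter threshold and with lists of equal size. With P at most 1e-10, 3 of the 7 kept opposite directions, all on EGF. The members together went from 14 to 15 in SKBr3 and from 15 to 8 in BT-474 cells, JUNB from 2 to 3 and from 3 to 1, and ATF3 from 4 to 5 and from 4 to 2. The opposite direction was lost for FOS on EGF (2 to 1 in SKBr3, 2 to 2 in BT-474 cells) and for FOSL1 (2 to 3, 1 to 1), FOSL2 (2 to 2, 4 to 3) and JUNB (2 to 7, 3 to 3) on HRG. With lists of equal size 4 of the 7 kept it, the same EGF cases (15 to 17 and 15 to 9 for the members together) and JUNB on HRG (2 to 7, 3 to 2). FOS on EGF (2 to 1, 2 to 2) and FOSL1 (2 to 3, 1 to 1) and FOSL2 (3 to 2, 4 to 3) on HRG lost it.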

How the results depend on the processing

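Of 144 recomputed values for 28 results, 100 stayed close to the reported value (counts within 1.5 times it) and 44 moved further. Each is a count or a share that cannot change sign. Apart from the word shares set beside those of all peaks, shares over all genes or all peaks were not recomputed for these alternatives. No paired analysis was possible because each condition has 1 deposited list, with no values of single replicates. Counting starts within 10 kb gave 11, 14 and 21 member peaks on SKBr3 vehicle, EGF and HRG, 11, 4 and 10 on BT-474 vehicle, EGF and HRG, 11 in pSKBr3 and 19 in LRSKBr3 cells, and 3 bound members on BT-474 EGF. It also left FOSB and FOSL1 without a peak in any list, JUND without one in pSKBr3 cells, FOS on BT-474 EGF and HRG and JUNB on BT-474 EGF, so that 3 members instead of 6 had a peak in all 8 lists. Peaks gained were then 4 on SKBr3 EGF, 10 on SKBr3 HRG, 2 on BT-474 HRG and 8 in LRSKBr3 cells, and peaks lost 0 on SKBr3 HRG and 3 on BT-474 HRG. With P at most 1e-10, SKBr3 vehicle had 14 and SKBr3 EGF 15 member peaks, and JUND had no peak on SKBr3 EGF or BT-474 HRG, so that its gain on EGF rests on weak peaks. With that threshold in both lists, 2 peaks were gained on SKBr3 EGF and 3 on BT-474 HRG, and 4 were lost on SKBr3 HRG and 3 on BT-474 HRG. With it in the counted list alone, 1, 14, 3 and 9 were gained on SKBr3 EGF, SKBr3 HRG, BT-474 HRG and in LRSKBr3 cells, and 0, 5 and 2 lost on SKBr3 EGF, BT-474 EGF and BT-474 HRG. With lists of equal size (22539 peaks), BT-474 HRG had 12 member peaks and none at JUND, 4, 1 and 6 were gained on SKBr3 EGF, BT-474 HRG and in LRSKBr3 cells, and 2, 5 and 2 lost on SKBr3 EGF, SKBr3 HRG and in LRSKBr3 cells. Requiring 50% overlap gave 3 lost on SKBr3 HRG and 3 in LRSKBr3 cells, and centres within 500 bp gave 4 and 2 lost there and 1 gained on BT-474 EGF. SKBr3 HRG, pSKBr3 and LRSKBr3 kept a peak at all 9 members with P at most 1e-10 and with lists of equal size. No share of all genes is known for these settings. The AP-1 share of member peaks was 10.9% within 250 bp of the centre (15.6% of all peaks) and 40.4% over whole peaks (35.2%). The ERRE share was 8.2% (10.4% of all peaks) and 8.74% (15.3%), or 21.9% (23.6%) with the shorter word AAGGTCA. Where the cause of a move is not in the setting's own construction, it was not tested. Read depth is unknown and limits which weak peaks could be called in each list.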
